A study of Mus musculus with 6 samples.

Results

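Strongly used internal exon bins are the stretches of a gene that lie between its first and last annotated pieces and are read at least as much as its median bin. In exon usage counting, every gene is cut at each annotated exon boundary into numbered bins, and the reads over each bin are counted, so that a skipped exon shows as a bin that loses reads relative to the rest of its gene. The members were 31240 bins of 5385 genes, out of 355320 bins of 37298 units in all. The median member held 6.16% of its gene's reads in wt, so a member can be a small part of its gene. They were chosen by 4 conditions: the unit was a single gene with at least 5 bins, the bin was neither the first nor the last, its wt mean was at least 500 reads, and its wt level in CPM (counts scaled to the library total) was at least 100% of the median bin of that gene. The choice therefore used the wt side of the comparison itself, and a bin that was high in the wt libraries by chance was more likely to enter. The usage change between genotypes over these members is for that reason a description, and tests are given for members chosen on 1 wt library and fitted on the others.

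The libraries were made from E14.5 fetal liver (FL) cells of C57BL/6 embryos, 1 library per embryo. The wt group had 3 embryos and the hnRNP L deficient group had 3 embryos, labelled hnRNPL wild-type and hnRNPL Knock-Out. According to the study, sorted Lin-cKit+ cells were used, and the deficient embryos were VavCre+ hnRNP L fl/fl. The Vav promoter drives Cre in hematopoietic cells, so other cells of the embryo keep the gene, and deletion depends on Cre having acted in each blood cell. The label for tissue reads whole embryo while the source reads fetal liver cells. Exon bins were used for wt replicates 1 to 3 and deficient replicates 2 and 3. Those of deficient replicate 1 were not analysed here, and this embryo enters only the gene counts.

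A typical internal exon is joined to both neighbours by the spliceosome, which reads a GT at the start and an AG at the end of each intron. RNA-binding proteins decide how often a weak exon is included, how often an intron is kept, and which polyadenylation site ends the transcript. hnRNP L is one of them: it binds CA-rich RNA in introns, exons and 3′ untranslated regions, and can repress or favor an exon according to where it sits. Here each bin was read against the bins of its own gene, whether or not all transcripts share them.

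Internal by number did not always mean an internal exon. Annotated positions in GRCm38 could be attached to 15682 members, those in genes with as many bins in the files as in the GENCODE M21 annotation. Of these, 12181 (77.7%) were wholly coding, 1740 were partly coding pieces of a last exon, 486 were partly coding elsewhere, 970 lay in 3′ UTRs, 196 in 5′ UTRs and 109 were noncoding. A last exon of some transcript held 38.5% of the placed members. Whole exons that were neither first nor last in any transcript made up 6505, or 41.5%. The median placed member was 130 bases long, against 117 for the wholly coding and 429 for the 3′ UTR members.

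The sequences below belong to the bins on which the results turn. All are printed 5′ to 3′ on the strand of the gene, with GRCm38 coordinates. The first set gives wholly coding exons: bin 25 of *Gnas* (chr2:174336747-174336791, plus strand), bins 11 and 16 of *Iars2* (chr1:185296411-185296513 and chr1:185315894-185316054, minus strand) and bin 3 of *Dtymk* (chr1:93794726-93794923, minus strand). These are the exons that stood on the losing or the gaining side of their genes, and no letter in them is marked.
Gnas bin 25: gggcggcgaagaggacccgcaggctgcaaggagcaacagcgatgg
Iars2 bin 11: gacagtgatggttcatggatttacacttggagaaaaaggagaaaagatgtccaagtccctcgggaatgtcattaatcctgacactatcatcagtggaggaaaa
Iars2 bin 16: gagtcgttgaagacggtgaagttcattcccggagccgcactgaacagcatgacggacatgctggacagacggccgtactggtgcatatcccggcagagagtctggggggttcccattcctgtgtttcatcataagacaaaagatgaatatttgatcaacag
Dtymk bin 3: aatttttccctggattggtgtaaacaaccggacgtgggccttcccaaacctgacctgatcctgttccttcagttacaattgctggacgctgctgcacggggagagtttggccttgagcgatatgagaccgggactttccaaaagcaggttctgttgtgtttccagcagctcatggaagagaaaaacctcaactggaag

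The second set gives the openings of bins that begin with GT at the point where the preceding bin ends. GT is how most introns begin, and in the annotation these bins follow on from an exon piece without a gap. They are bin 15 of *Bcas2* (chr3:103175670-103175729, plus strand), bin 20 of *Hnrnpl* (chr7:28815353-28815412, plus strand), bin 5 of *Inip* (chr4:59775387-59775446, minus strand), bin 6 of *Rpl41* (chr10:128548598-128548657, minus strand), bin 8 of *Dtymk* (chr1:93800772-93800801, minus strand) and bin 11 of *Rai1* (chr11:60190623-60190652, plus strand). Capitals mark the GT, and in the last line, which closes bin 15 of *Bcas2* (chr3:103177279-103177338), the AG.
Bcas2 bin 15, start: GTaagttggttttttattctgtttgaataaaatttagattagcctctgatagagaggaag
Hnrnpl bin 20, start: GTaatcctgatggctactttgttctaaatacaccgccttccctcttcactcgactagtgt
Inip bin 5, start: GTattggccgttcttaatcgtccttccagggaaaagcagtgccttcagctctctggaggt
Rpl41 bin 6, start: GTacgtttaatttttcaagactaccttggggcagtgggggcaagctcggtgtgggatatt
Dtymk bin 8, start: GTaaagacctgcgtcgttgctccccggttg
Rai1 bin 11, start: GTaagaggctagagcagctggggtgggcta
Bcas2 bin 15, end: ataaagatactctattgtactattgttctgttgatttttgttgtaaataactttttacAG

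The third set shows, for each of its bins, the window with the most matches of the letters ACACA, since hnRNP L is known to bind CA-rich RNA. They come from the noncoding bin 7 of *Bcl11a* (chr11:24088549-24088648, plus strand), bin 20 of *Hnrnpl* (chr7:28816391-28816490, plus strand) and the 3′ UTR bin 12 of *Mad2l1* (chr6:66540277-66540306, plus strand). Capitals mark runs of the letters ACACA, overlapping matches included. The *Mad2l1* bin holds 1 match in all, so its window is not a CA-rich stretch.
Bcl11a bin 7, window: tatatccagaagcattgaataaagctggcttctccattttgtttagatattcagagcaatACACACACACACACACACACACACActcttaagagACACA
Hnrnpl bin 20, window: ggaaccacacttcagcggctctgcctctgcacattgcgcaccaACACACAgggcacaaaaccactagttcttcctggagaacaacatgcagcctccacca
Mad2l1 bin 12, window: gtttaaatgtaaACACAgcagaagggatca

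The targeted gene separated the genotypes in every library. *Hnrnpl* stood at 549, 526 and 522 CPM in the wt libraries and at 246, 289 and 271 CPM in the deficient ones, a log2 change of -1.01 ± 0.088 (SE, n = 3 and 3, adjusted p = 0.0072, edgeR quasi-likelihood test). Here and below, fewer cells that express a gene and less RNA per cell cannot be told apart. Reads on bins ranged from 102176927 to 145043938 per library, and the members held 48.8% to 50% of them. *Kit*, the receptor used in the sort, was at 421 to 648 CPM in wt and 326 to 373 CPM in deficient libraries. The summed CPM of 6 progenitor markers was 1100 to 1500 against 878 to 1010, and that of 6 erythroid markers 957 to 1100 against 1030 to 1240. Of markers of other cells, 5 myeloid markers summed to 510 to 6370 CPM in wt and 213 to 645 CPM in deficient libraries, 4 hepatocyte markers to 103 to 220 and 20.4 to 68.4, 3 endothelial markers to 16.4 to 45 and 6.95 to 8.24, 3 megakaryocyte and mast cell markers to 62 to 134 and 63.4 to 91.6, and 3 lymphoid markers to 0.215 to 4.43 and 0.046 to 0.148. No listed marker was at 0 in every library. The part of these cells in the usage values was not tested. *Xist* was high in wt replicate 1 and deficient replicate 2, and the Y-linked *Ddx3y* in the other 3 libraries with exon bins, so both genotypes held both sexes.

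Over the members, 2 libraries stood apart. In wt replicate 2 the reads were shifted toward the 3′ ends of genes. Genes were cut into 5 stretches with equal numbers of bins, and log2 shares were taken against the mean of the 5 libraries. In the most 5′ stretch the median of placed members was -0.185 in that library, against 0.034 to 0.072 in the other 4. In the most 3′ stretch it was 0.119 against -0.044 to -0.019. In wt replicate 3 a single bin of *Lars2*, bin 21, took 90.6% of the reads of that gene, against 44.2% to 60.1% elsewhere.

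Usage of the members hardly differed between the genotypes. Their median log2 usage change, the change of a bin relative to the other bins of its gene, was 0.0032, and 97.6% of the members lay within 0.25 of 0. The central 98% ran from -0.28 to 0.25. By sign, 15178 members were lower and 16062 higher in deficient cells. Over all 176996 bins tested the median was 0.0206 and 72.9% lay within 0.25, but the median bin in the files has 10.7 wt reads where the median member has 995. Internal bins with as many reads that lay below the median of their gene, 7326 in number, had a median of 0.0257 with 96% within 0.25. First and last bins with as many reads had a median of -0.0652 with 90.3% within 0.25.

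The members' shares varied between single libraries. Between wt replicates 1 and 3 the central 98% of the members' log2 share differences ran from -0.41 to 0.43, and between replicates 1 and 2 from -0.65 to 0.65. The deficient pair spanned -0.21 to 0.23. The width of the central 98% was 0.84 to 1.3 over the 3 wt pairs, 0.44 in the deficient pair and 0.6 to 1.19 over the 6 pairs of 1 wt and 1 deficient library.

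No member passed the edgeR test of usage at an adjusted p of 0.05 in either direction. Over all bins tested, 18 were called lower (0.0102%) and 33 higher (0.0186%). At an unadjusted p of 0.05 edgeR counted 55 of the 31240 members, against 1.02% of all bins. At 0.01 it counted 17, of which 9 were lower and 8 higher, against 0.324% of all bins. All these shares lie below what evenly spread p-values would give. The edgeR usage p-values here and below therefore ran large, and a high one is weak evidence of no change. Past an unadjusted p of 0.01 and a 2-fold change stood 3 lower and 4 higher members, where all bins gave 0.0921% lower and 0.154% higher. The other tools gave more calls. The DEXSeq model called 20 members lower and 11 higher, or 0.064% and 0.0352%, beside 0.131% and 0.175% of all bins. limma's diffSplice called 10 lower and 3 higher, beside 0.0537% and 0.0706% of all bins, and limma on the log2 ratio of a bin to the rest of its gene called none. On simulated counts of the same design edgeR recovered 14% of the bins changed 2-fold and limma on the ratio 2%. Their lack of calls therefore does not show that no member differed. The DEXSeq model recovered 29%, but it called unchanged bins more often than its threshold allows. Among the members it did so in a number of the same order as its calls here, so a large part of these may be false. Of the unchanged bins, limma on the ratio called 12, of which 7 were members, and edgeR called 5, of which 0 were members. The calls of limma on the ratio given below may thus also be false in large part. Of bins changed 1.5-fold, edgeR, limma on the ratio and the DEXSeq model recovered 0%, 0% and 4%. The simulation drew each bin on its own, where in the data neighbouring bins share reads, so its rates may not carry over.

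**Figure D1:**
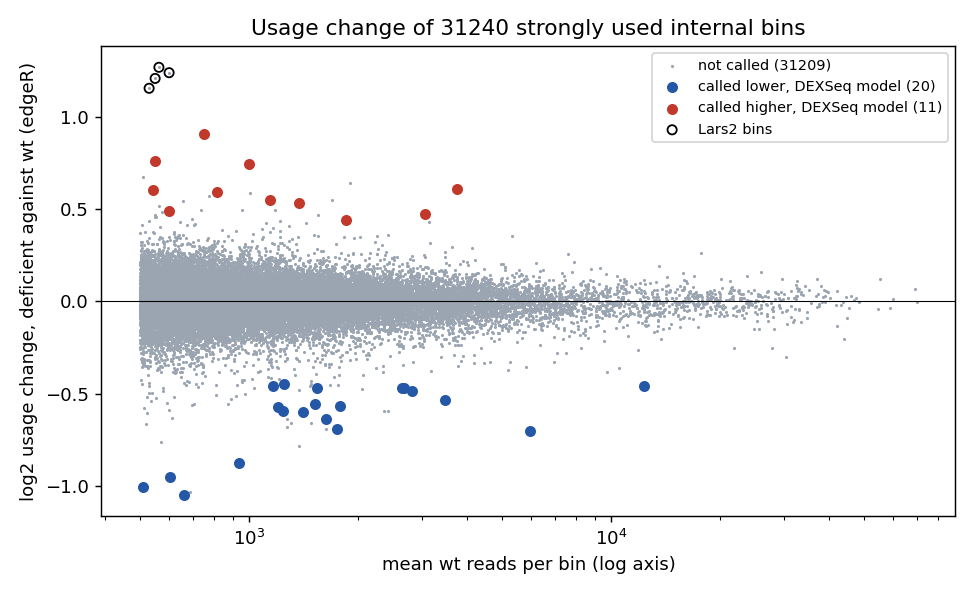
Log2 usage change of each of the 31240 members in deficient against wt libraries (vertical axis, edgeR) against its mean wt reads (horizontal log axis), 1 point a bin. Filled colored points are the 20 members called lower and the 11 called higher by the DEXSeq model, and open circles are the 4 bins of *Lars2*, which rest on wt replicate 3. The cloud stays within 0.25 of 0 for 97.6% of the members.

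Shares of the gene's reads did not overlap between the genotypes for many members, as they did for other bins. In 2583 members both deficient libraries were below all 3 wt libraries, which is 8.27% against 8.21% of all bins tested. In 3038 members both were above, 9.72% against 12.1%. A log2 change below -0.5 was seen in 39 members, or 0.125% against 4.28% of all bins, and one above 0.5 in 19, or 0.0608% against 6.17%. Fewer members than bins in general had large changes in either direction, and members have more reads.

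Choosing the members on 1 wt library and fitting the rest frees the test from the choice. With members chosen on wt replicate 1, 28410 bins, edgeR called 0 lower and 0 higher, beside 0.0224% and 0.0258% of all bins, and the DEXSeq model called 12 lower and 3 higher, beside 0.177% and 0.223%. With members chosen on wt replicate 2, 29112 bins, edgeR called 5 lower and 2 higher, beside 0.0267% and 0.0619%, and the DEXSeq model 23 lower and 12 higher, beside 0.181% and 0.257%. With members chosen on wt replicate 3, 35991 bins, edgeR called 1 lower and 0 higher, beside 0.00227% and 0.0171%, and the DEXSeq model 20 lower and 23 higher, beside 0.152% and 0.34%. limma on the ratio called 13 lower and 7 higher when wt replicate 2 was out of the fit, beside 0.0466% and 0.0386%, and none in the other 2 choices. With the members of the full rule, the same DEXSeq model fits gave 14 lower and 3 higher, 23 and 11, and 18 and 16. Without wt replicates 1 and 2 these counts lay near those of the members chosen on the library left out. Without wt replicate 3 the higher calls were 16 against 23. What the choice and the library left out each add was not tested. A choice on the deficient libraries, which favors bins that are high there, gave 34729 bins with 0 lower and 10 higher in edgeR, beside 0.0102% and 0.0186% of all bins.

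In all, 63 bins were called by the DEXSeq model in at least 1 of the 3 choices, 32 lower and 31 higher, and no bin changed its sign from one choice to another. Of these, 9 bins were called in all 3, 12 in 2 and 42 in 1. The 9 comprised 7 lower and 2 higher bins. Of the 31 members called with all libraries, 29 were called in at least 1 choice. All 31 had shares that did not overlap between genotypes, where 8.21% of all bins tested were lower and 12.1% higher without overlap. All 31 had the same sign in edgeR. The calls were picked on these same counts, so overlap and sign are no separate evidence for them. The 3 choices share both deficient libraries and are not independent of each other. With either deficient library left out, the DEXSeq model called 0 members lower and 0 higher.

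The 7 bins with lower usage in all 3 choices came from genes of unrelated function. *Noct* encodes nocturnin, a rhythmic phosphatase, and its bin 3 took 56%, 63.6% and 50.2% of the gene's reads in wt and 34.7% and 35.8% in deficient cells. Both deficient values lie below all wt values by more than the wt libraries differ from each other. The log2 change in the DEXSeq model was -1.27 ± 0.29 (SE, adjusted p = 0.0061), and in edgeR -0.70 ± 0.26 (adjusted p = 1). These fits used all libraries, including those that chose the members. In the choices on wt replicates 1, 2 and 3, the DEXSeq model adjusted p of bin 3 was 0.039, 5.3e-05 and 6.4e-06. Bin 5 of the same gene mirrored bin 3, with 36.3%, 30.9% and 40.9% in wt and 54.6% and 53.3% in deficient cells. With all libraries it was called higher (DEXSeq model log2 1.06 ± 0.24, adjusted p = 0.0068), and in the same choices its adjusted p was 0.06, 0.00033 and 2.6e-05. These bins hold most of the gene's reads between them, so a loss in one is a gain in the other by construction.

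Bin 2 of *Zmym5*, a zinc finger protein gene, had 528, 598 and 858 reads in wt and 288 and 285 in deficient libraries. Its share was 16.8%, 19.7% and 19.3% in wt (mean 18.6% ± 1.58, SD, n = 3) and 9.6% and 8.4% in deficient cells, 48.3% of the wt share. The change was -1.05 ± 0.23 in edgeR (adjusted p = 0.3) and -1.21 ± 0.2 in the DEXSeq model (adjusted p = 1.8e-06). In the choices on wt replicates 1, 2 and 3 the DEXSeq model adjusted p was 3.9e-06, 0.00088 and 0.0021. The bin was 1 of the 3 members that edgeR placed past 2-fold in the lower direction. *Zmym5* as a gene was also lower, as given below.

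Bin 2 of *N4bp2l2* held 19.1%, 18.6% and 20.3% of the reads in wt and 11.8% and 12.1% in deficient cells. The wt values lie close together (SD 0.882) and both deficient values are far below them. The DEXSeq model gave -0.82 ± 0.12 (adjusted p = 1.2e-07), limma's diffSplice an adjusted p of 0.00016 and edgeR an unadjusted p of 0.0046 and an adjusted p of 1. In the choices on wt replicates 1, 2 and 3 the DEXSeq model adjusted p of this bin was 0.0011, 7.2e-07 and 0.00056. Low bin numbers lie at the 3′ end of genes on the minus strand, as *N4bp2l2* and *Zmym5* are, but neither bin could be given an annotated position.

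*Otud5*, *Mad2l1* and *Pcmt1* showed the loss in annotated 3′ portions. Bin 33 of *Otud5*, a deubiquitinase gene, covers 1330 bases of 3′ UTR (chrX:7875291-7876620) and had 5.39%, 6.53% and 5.16% of the reads in wt and 3.24% and 2.97% in deficient cells. It was called lower at -0.91 ± 0.18 in the DEXSeq model (adjusted p = 0.00087). Bin 12 of *Mad2l1*, which encodes the spindle checkpoint protein MAD2, covers 475 bases of 3′ UTR (chr6:66539951-66540425) with 9.11%, 10.5% and 9.37% in wt and 6.17% and 6.24% in deficient cells (DEXSeq model -0.69 ± 0.14, adjusted p = 0.00052). Bin 2 of *Pcmt1*, which encodes a methyltransferase that repairs aged aspartyl residues, is a last exon of 1596 bases, 0.627% of them coding, and had 23.2%, 23.5% and 21.4% against 16.1% and 15.2% (DEXSeq model -0.66 ± 0.13, adjusted p = 0.00027). In each of these 3 bins wt replicate 2, the library with the 3′ shift, was the highest of the wt libraries, and without it the calls stood at adjusted p of 2.3e-05, 8.9e-05 and 0.0037. In the choice on wt replicate 1 they stood at 0.011, 0.0071 and 0.048, and in that on wt replicate 3 at 0.0017, 0.02 and 0.0018.

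Bin 7 of *Bcl11a*, which encodes a transcription factor that silences fetal globin genes, is a noncoding stretch of 5256 bases that opens with GT and ends 1 of 6 annotated transcripts (chr11:24085651-24090906). It had 5.45%, 5.8% and 5.51% of the reads in wt and 3.65% and 3.86% in deficient cells, and the DEXSeq model called it lower at -0.60 ± 0.11 (adjusted p = 0.00015). In the choices on wt replicates 1, 2 and 3 its DEXSeq model adjusted p was 0.023, 0.0011 and 0.026. The wt shares had a mean of 5.59% ± 0.189 (SD, n = 3), and the deficient mean was 3.75%. This is the bin with the long ACACA run printed above, and it holds 29 matches in all.

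The 2 bins called higher in all 3 choices were bin 2 of *Eef1d* and bin 15 of *Bcas2*. *Eef1d* encodes a subunit of the translation elongation factor complex, and its bin 2 had 850, 636 and 769 reads in wt and 2037 and 2284 in deficient libraries. The share was 1.41%, 1.14% and 1.23% against 2.42% and 2.33%, or 188% of the wt share, with 0.91 ± 0.19 in edgeR (unadjusted p = 0.00015, adjusted p = 0.28) and 0.93 ± 0.15 in the DEXSeq model (adjusted p = 3.2e-06). In the choices on wt replicates 1, 2 and 3 the DEXSeq model adjusted p was 1.2e-07, 1.7e-06 and 0.0017. *Bcas2* encodes a component of the Prp19 complex of the spliceosome. Its bin 15 had 3.72%, 3.95% and 4.5% in wt and 6.72% and 6.75% in deficient cells, 166% of the wt share (DEXSeq model 0.78 ± 0.15, adjusted p = 0.00017). In the same choices the adjusted p of this bin was 0.0099, 0.0023 and 8.1e-06.

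**Figure D2:**
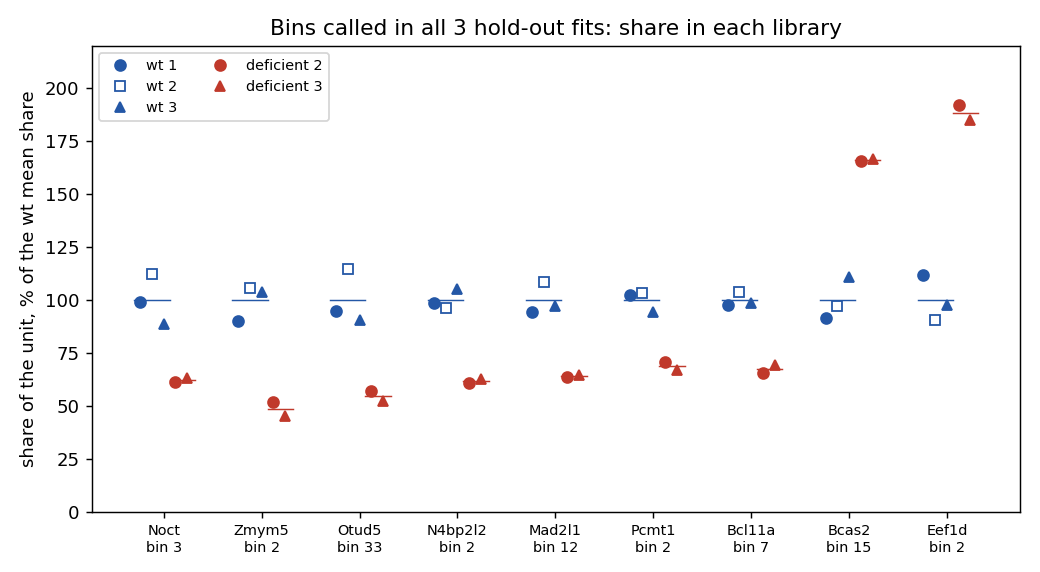
Share of the gene's reads in each of the 5 libraries, as a percentage of the wt mean share, for the 9 bins called by the DEXSeq model with members chosen on each wt library in turn (vertical axis from 0). Blue marks are wt and red marks deficient libraries, with lines at the group means, and in every bin both red marks lie on one side of all blue marks, from 48.3% of the wt share in *Zmym5* bin 2 to 188% in *Eef1d* bin 2.

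*Bcas2* showed how a gene can hold members that differ in opposite directions. Bin 15 spans 1669 noncoding bases between the coding bins 14 and 16, opens with GT and closes with AG, and is included in 2 of the 6 annotated transcripts, neither of them coding. In CPM it stood at 218% of the wt level in deficient cells. The adjoining coding bins 14 and 16 stood at 120% and 128%, and the noncoding bin 13, which lies before bin 14, at 179%. Bin 20, 325 bases of 3′ UTR at the end of the gene (chr3:103178828-103179152), stood at 65%, with 1.94%, 2.33% and 1.98% of the reads in wt and 1% and 1.06% in deficient cells. It was called lower (DEXSeq model -1.03 ± 0.16, adjusted p = 1e-06, edgeR -1.01 ± 0.19, adjusted p = 0.55). In the choices on wt replicates 1 and 3 its DEXSeq model adjusted p was 4.5e-05 and 0.00013, and that on wt replicate 2 did not hold it. The gene as a whole was higher, at 228, 168 and 174 CPM in wt and 264, 268 and 274 CPM in deficient libraries (log2 0.48 ± 0.12, adjusted p = 0.036, edgeR).

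*Iars2*, which encodes the mitochondrial isoleucyl-tRNA synthetase, divided along its length. Its 7 members at the 5′ side, bins 30 to 16, stood at 73.9% to 82.9% of the wt CPM in deficient cells, and its 9 members at the 3′ side, bins 12 to 2, at 42.3% to 49.8%. These ranges do not touch. The division was drawn after the values were seen and is a description. Reads of the 3′ members per read of the 5′ members were 1.4, 1.75 and 1.38 in wt and 0.871 and 0.902 in deficient libraries. Between the sides lies bin 15, which is no member: it had 73, 91 and 74 reads in wt and 420 and 448 in deficient libraries, 455% of the wt CPM. Of the members, bins 7, 10 and 11 were called lower by the DEXSeq model (adjusted p = 0.0068, 0.034 and 0.0065), with log2 changes of -0.47, -0.49 and -0.47, and none by edgeR. With members chosen on 1 wt library and fitted without it, bins 7 and 11 were called only without wt replicate 2 (adjusted p = 0.03 and 0.022, against 0.25 and 0.26 without replicate 1 and 0.11 and 0.16 without replicate 3), and bin 10 in none (0.24, 0.084 and 0.27). Bin 11, printed above, had 4.3%, 4.19% and 4.21% in wt and 3.05% and 3.16% in deficient cells. The gene was lower as a whole, at 253, 201 and 254 CPM in wt and 158, 159 and 157 CPM in deficient libraries (log2 -0.60 ± 0.1, adjusted p = 0.016, edgeR).

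*Dtymk*, which encodes thymidylate kinase, divided in the same way. Its bins 10, 9 and 8 at the 5′ side stood at 141% to 158% of the wt CPM and its bins 4, 3 and 2 at the 3′ side at 77.1% to 82.5%. Reads of the 3′ members per read of the 5′ members were 0.873, 1 and 0.795 in wt and 0.503 and 0.469 in deficient libraries. These sides were also drawn after the values were seen. Bin 8 is a last exon of 1 of 4 transcripts that begins with the GT shown above, directly behind the coding bin 9, and 0.136% of its 737 bases are coding. Its share was 16.4%, 15% and 17.5% in wt and 22.4% and 22.6% in deficient cells (DEXSeq model 0.58 ± 0.14, adjusted p = 0.017). With members chosen on wt replicates 1, 2 and 3 in turn and fitted without them, its adjusted p was 0.2, 0.0078 and 0.013. Bins 2, 3 and 4 were called lower with adjusted p of 0.037, 0.002 and 0.027 with all libraries. Under the same 3 choices these were 0.2, 0.014 and 0.11 for bin 2, 0.1, 0.0034 and 0.029 for bin 3, and 0.25, 0.095 and 0.001 for bin 4. The gene count of *Dtymk* did not pass the test (log2 0.24 ± 0.081, adjusted p = 0.08, edgeR).

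*Hnrnpl* itself, the deleted gene, had 20 members. Bins 9 to 19, its 9 members at the 5′ side, stood at 37.3% to 40.3% of the wt CPM, and its 10 members from bin 24 to bin 37 at 41.5% to 53.1%. Reads of the 3′ members per read of the 5′ members were 1.31, 1.51 and 1.35 in wt and 1.76 and 1.83 in deficient libraries. The sides of this gene, too, were drawn after the values were seen. Loss of sequence by the deletion itself and a change of usage cannot be told apart in this gene. Bin 20, noncoding, 1584 bases and opening with GT directly after coding bin 19, stood at 73%. Its share was 2.24%, 2.28% and 2.98% in wt and 3.86% and 3.89% in deficient cells, with an edgeR change of 0.64 ± 0.15 (unadjusted p = 0.0068, adjusted p = 1) and a DEXSeq model adjusted p of 0.13. With members chosen on wt replicates 1, 2 and 3 and fitted without them, that adjusted p was 0.45, 0.25 and 7.8e-06, and the wt replicate with the highest share is replicate 3. Over the other members of *Hnrnpl* the log2 usage change ran from -0.33 to 0.17.

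**Figure D3:**
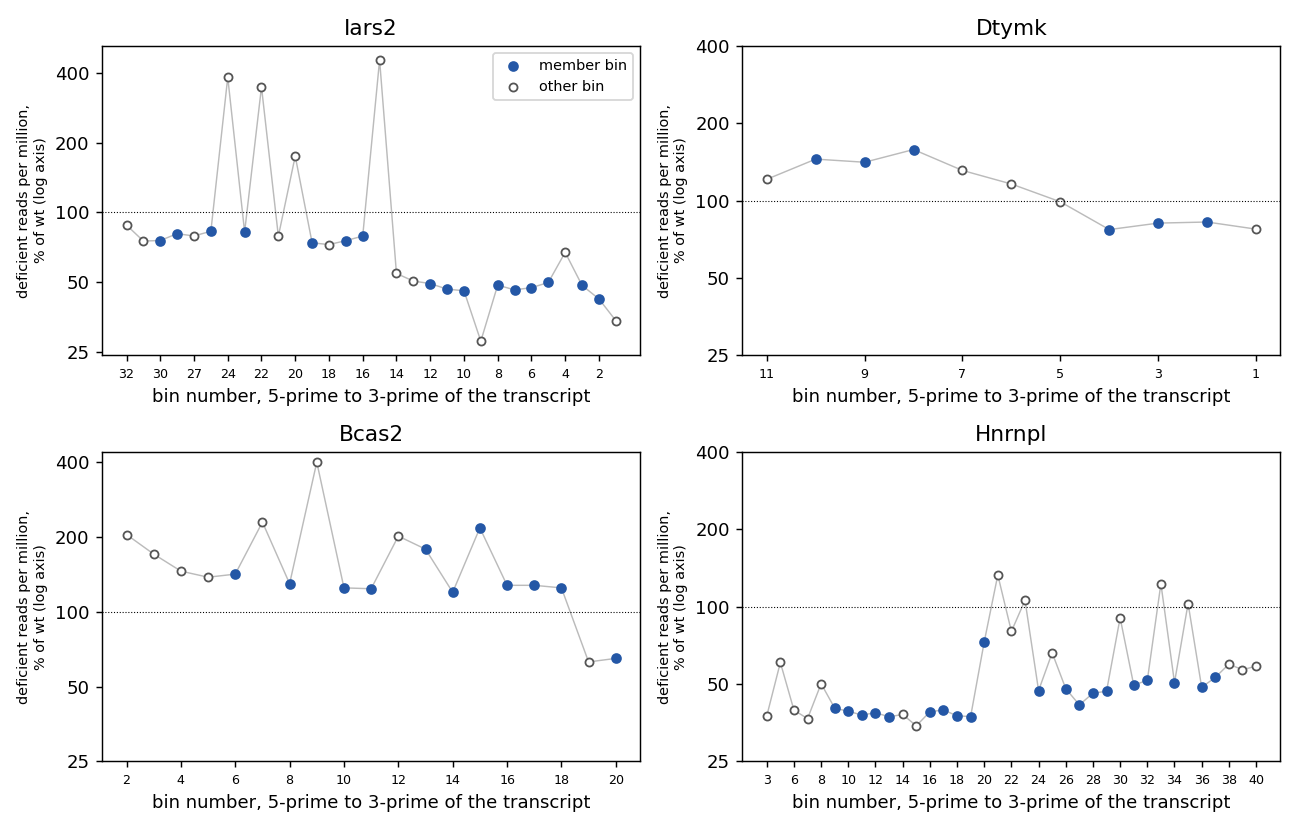
CPM in deficient cells as a percentage of the wt CPM (vertical log axis) for each bin of *Iars2*, *Dtymk*, *Bcas2* and *Hnrnpl* with a mean of at least 10 reads, in 5′ to 3′ order (horizontal axis, bin numbers). Filled points are members and open points other bins, and the dotted line is 100%. Members of *Iars2* step from 73.9% to 82.9% down to 42.3% to 49.8%, those of *Dtymk* from 141% to 158% down to 77.1% to 82.5%, and bin 15 of *Bcas2* stands at 218%, where the coding members of that gene stand at 120% to 142%.

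The members called lower and higher were bins of different kinds. Of the 15 lower calls with an annotated position, 5 lay in a 3′ UTR, 3 were partly coding pieces of a last exon, 1 was noncoding and 6 were wholly coding. The wholly coding ones were the bins of *Dtymk* and *Iars2* named above, 5 in number, and bin 14 of *Gm47283*. That gene is annotated on chromosome Y, yet wt replicate 1, with high *Xist*, had 2130 reads on the bin. The wt replicates 2 and 3 had 997 and 1098, and where these reads arise was not tested. In the choices on wt replicates 1, 2 and 3 the DEXSeq model adjusted p of this bin was 0.062, 0.023 and 0.0021. Of the 7 higher calls, 3 were noncoding, 3 were partly coding pieces of a last exon and 1 was wholly coding. That one is bin 25 of *Gnas*, a short exon of the gene for the stimulatory G protein alpha subunit, which has 45 bases. It had 1.69%, 1.46% and 1.48% of the reads in wt and 2.14% and 2.27% in deficient cells (DEXSeq model 0.53 ± 0.13, adjusted p = 0.03). Without wt replicates 1, 2 and 3 in turn, with members chosen on the library left out, its adjusted p was 0.013, 0.078 and 0.23. Of the 22 placed calls, 20 were in bins that some coding transcripts of the gene lack, as are 44.4% of all placed members.

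Bins opening with GT directly after another bin were 802 of the placed members, or 5.11%. Of these, 451 were wholly coding, with 0 calls in either direction, and 54 were noncoding, so the class is not one of introns. The noncoding ones had a median log2 change of 0.057 with all libraries and -0.041 without wt replicate 2. Bins of the whole class were 5 of the 7 placed higher calls and 2 of the 15 placed lower calls. The 5 were bin 15 of *Bcas2*, bin 8 of *Dtymk*, bin 5 of *Inip*, bin 11 of *Rai1* and bin 6 of *Rpl41*. Bin 5 of *Inip*, a gene of a complex that acts in DNA repair, had 11%, 10.7% and 10.6% in wt and 14.7% and 15.4% in deficient cells (DEXSeq model 0.56 ± 0.13, adjusted p = 0.006). It was called in none of the 3 choices on 1 wt library (adjusted p = 0.12, 0.061 and 0.17). Bin 6 of *Rpl41*, a ribosomal protein gene, had 0.532%, 0.552% and 0.631% against 0.88% and 0.838% (adjusted p = 0.02), and bin 11 of *Rai1* 5.73%, 5% and 7.01% against 9.71% and 10.6% (adjusted p = 0.037). Each of these was called in 1 choice, that on wt replicate 3 (adjusted p = 0.0054 and 0.00042), and was below the threshold of the rule or uncalled in the others. Over all 802 such bins the median log2 change was 0, and 9.98% were lower and 12% higher without overlap. The other placed members had a median of 0.003, with 8.71% lower and 9.78% higher, and all bins tested gave 8.21% and 12.1%. Both shares of the class were thus slightly above those of the other placed members. *Hnrnpl* bin 20 opens in the same way, and was called higher only with members chosen on wt replicate 3 and that library left out.

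The letters ACACA, searched on the strand of the transcript only and with overlaps counted, were present in 19.5% of the placed members, at 1.46 matches per kb. They were in 5 of the 15 placed lower calls (2.37 matches per kb) and in 3 of the 7 placed higher calls (1.98 per kb). The called bins are longer than most: the median lower call had 325 bases and the median higher call 737. Among placed members of 300 to 3000 bases, 56.6% held the letters, at 1.6 per kb. Bin 7 of *Bcl11a* alone gave 29 of the 33 matches in the lower calls. A match is a string of letters and not a measured binding site.

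The 3′ UTR members as a class leaned to lower usage, but the lean went with wt replicate 2. Their median log2 change was -0.072, with 20% lower and 3.92% higher without overlap, where all bins gave 8.21% and 12.1%. Without wt replicate 2 the median was -0.007, and 21.9% were lower and 18.6% higher without overlap, where all bins then gave 17.5% and 19.1%. The 5′ UTR members moved from 0.044 to 0 when that library was left out, the partly coding pieces of last exons from -0.03 to 0.011, and the wholly coding members from 0.011 to -0.001. The 109 noncoding members had a median of 0.003 with all libraries and -0.029 without it.

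**Figure D4:**
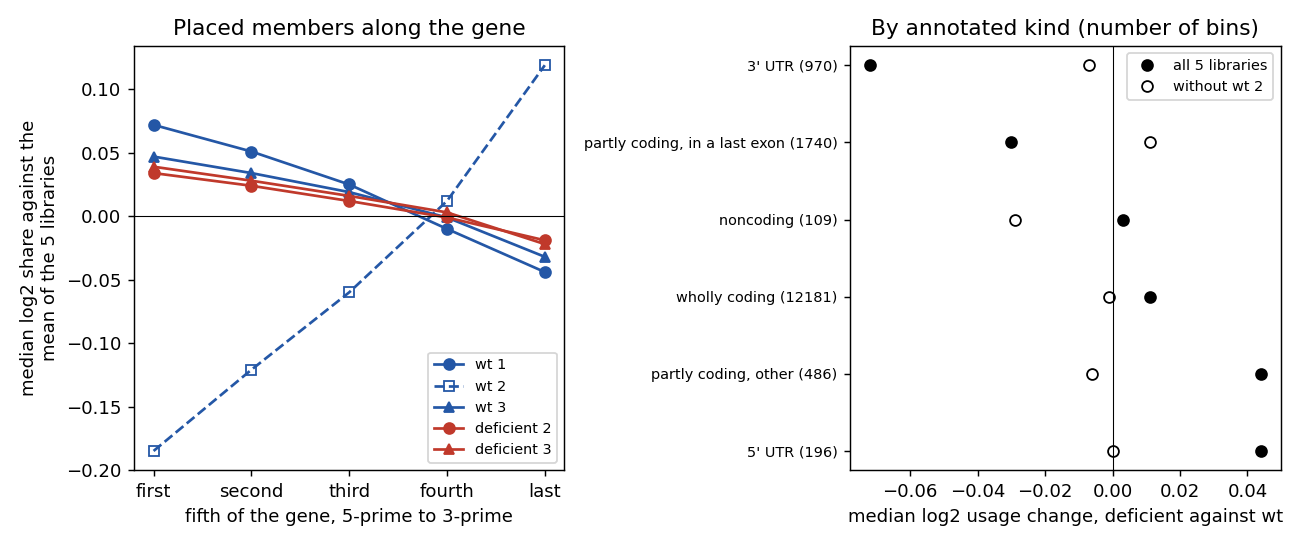
Left, median log2 share of placed members against the mean of the 5 libraries (vertical axis), 1 line a library. The horizontal axis gives 5 stretches of the gene, equal in number of bins, from 5′ to 3′. Right, median log2 usage change (horizontal axis) of the 6 kinds of member with all libraries (filled) and without wt replicate 2 (open). The line of wt replicate 2 runs from -0.185 to 0.119 while the other 4 lie between 0.072 and -0.044, and the median of the 3′ UTR members moves from -0.072 to -0.007.

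Among members with an unadjusted edgeR p under 0.01 and no overlap between the genotypes, 9 were the largest losses and 4 the largest gains, 1 bin per gene. Beyond those already given, the losses included bin 3 of *Strbp*, which encodes an RNA-binding protein of the testis, with 3.32%, 7.73% and 4.72% of the reads in wt and 2.82% and 2.21% in deficient cells. Its wt libraries differ more than 2-fold, and the edgeR change of -1.03 ± 0.23 was -0.66 without wt replicate 2 and -1.3 without wt replicate 1. Bin 2 of *Wdr4*, a subunit of a tRNA methyltransferase, had 12.9%, 17.3% and 13.7% in wt and 9.34% and 8.6% in deficient cells (edgeR -0.69 ± 0.19, adjusted p = 1, limma's diffSplice adjusted p = 0.0057). Bin 2 of *Metap2*, a methionine aminopeptidase, had 2.1%, 1.73% and 1.66% against 1.26% and 1.07%, and bin 16 of *Dido1* 8.2%, 11.6% and 9.24% against 6.38% and 5.8%. Neither was called by the DEXSeq model (adjusted p = 0.098 and 0.26).

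The remaining DEXSeq model calls were all smaller than 2-fold. Bin 34 of *Znrf1*, 1942 bases of 3′ UTR of a ubiquitin ligase gene, had the largest, with 4.81%, 5.89% and 5.44% in wt and 2.9% and 2.79% in deficient cells (log2 -0.96 ± 0.18, adjusted p = 0.00025, and 0.0018 and 0.014 in the 2 choices that held it). The 3′ pieces in bin 2 of *Eif2s2*, a translation initiation factor gene, and bin 23 of *Srsf10*, a splicing regulator gene, had DEXSeq model changes of -0.59 and -0.51. The *Eif2s2* bin was at adjusted p of 0.025 and 0.12 in the choices on wt replicates 2 and 3, and that on replicate 1 did not hold it. The *Srsf10* bin was at 0.18, 0.029 and 0.024 in the choices on wt replicates 1, 2 and 3. Bin 42 of *Mkln1* and bin 27 of *Anp32e*, the gene of a histone chaperone, were called lower at -0.63 and -0.55. In the same 3 choices the *Mkln1* bin was at adjusted p of 0.15, 0.00077 and 0.073, and the *Anp32e* bin at 0.03, 0.013 and 0.096. Bin 13 of *Nsd3* and bin 22 of *Nsd2*, both genes of histone methyltransferases, were called higher at 0.63 and 0.49, and bin 20 of *Rps9*, a ribosomal protein gene, at 0.55. In the same 3 choices the adjusted p was 0.065, 0.00052 and 0.064 for *Nsd3* and 0.39, 0.00022 and 0.28 for *Nsd2*. Both were thus called only in the choice on wt replicate 2. For *Rps9* it was 0.071, 0.004 and 0.013.

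The 4 members past an unadjusted p of 0.01 and 2-fold in the higher direction were all bins of *Lars2*, the mitochondrial leucyl-tRNA synthetase gene. Bin 2 had 4.65%, 3.06% and 0.697% of the reads in wt and 3.19% and 4.07% in deficient cells, and bins 12, 16 and 17 ran alike. The genotypes overlap in all 4, and the low value is that of wt replicate 3, where bin 21 took nearly the whole gene. Without that library the log2 changes of bins 2, 12, 16 and 17, which were 1.15 to 1.27 with it, were -0.11, 0.02, -0.23 and -0.2.

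No member of the 10 lists of genes grouped by function was called by edgeR, and the medians of the lists ran from -0.006 to 0.028. Among hnRNP and SR splicing regulators, 37 of 45 genes gave 431 members with a median log2 change of 0.017, 411 of them within 0.25 of 0. The lowest was bin 51 of *Rbm39*, noncoding, at -0.56 (unadjusted p = 0.032), and the highest bin 20 of *Hnrnpl*. The DEXSeq model called 1 of them, in *Srsf10*. Of 42 core spliceosome genes, 36 gave 413 members with a median of 0.002, and all 413 lay within 0.25, from -0.24 in bin 2 of *Eftud2* to 0.25 in bin 10 of *Prpf6*. Without wt replicate 2 the *Eftud2* bin was at -0.09. None of them was called by the DEXSeq model.

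Genes of the cell cycle and of p53 also had medians near 0. Of 44 DNA replication genes, 42 gave 428 members with a median of -0.003, from -0.27 in bin 18 of *Cdc6* to 0.27 in bin 3 of *Gins1*, and the *Cdc6* bin was at -0.15 without wt replicate 2. Of 42 mitosis genes, 41 gave 444 members with a median of 0.003, the lowest being bin 12 of *Mad2l1* at -0.64 and the highest bin 9 of *Mki67* at 0.35. That *Mki67* bin had 5.75%, 2.35% and 5.94% in wt and 6.05% and 6.38% in deficient cells, and its change was 0.09 without wt replicate 2. Of 44 genes of the p53 pathway, 25 gave 109 members with a median of 0.006, from -0.35 in bin 38 of *Atr* to 0.23 in bin 4 of *Ccnd2*. The *Atr* bin was at -0.18 without deficient replicate 3 and the *Ccnd2* bin at 0.14 without wt replicate 1. The DEXSeq model called the *Mad2l1* bin and no other member of these 3 lists.

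Of 39 erythroid genes, 32 gave 322 members with a median of 0.015, from -0.78 in bin 78 of *Ank1* (unadjusted p = 0.035) to 0.35 in bin 3 of *Hbb-bs*. The *Ank1* bin, in the 3′ UTR, had 1.47%, 2.71% and 1.81% in wt and 1.06% and 1.14% in deficient cells, with wt replicate 2 highest, and its change was -0.58 without that library. The DEXSeq model called 1 erythroid list member, bin 7 of *Bcl11a*, and none of the stem and progenitor list. Of 35 stem and progenitor genes, 21 gave 124 members with a median of 0.028, from -0.52 in bin 23 of *Csf3r* to 0.33 in bin 24 of *Cd44*. Without wt replicate 2 these were -0.17 and 0.2. *Csf3r*, the receptor of a myeloid growth factor, stood at 16.6, 85.5 and 29.3 CPM in wt and 6.67 to 12.2 CPM in deficient libraries, and the myeloid marker sums given above were likewise highest in the wt group. Their part in the usage of this bin was not tested.

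Of 41 mitochondrial and redox enzyme genes, 40 gave 418 members with a median of 0.005, and both extremes were in *Iars2*, from -0.6 in bin 2 to 0.38 in bin 25. Of 72 cytosolic ribosomal protein genes, 55 gave 337 members with a median of -0.006, from -0.38 in bin 5 of *Rps9* to 0.6 in bin 6 of *Rpl41*, and reads of these genes can be shared with their many processed copies. The DEXSeq model called 2 of them higher, bin 6 of *Rpl41* and bin 20 of *Rps9*. The genes that the study listed for exon usage, which were picked on these same embryos and are no independent evidence, gave 122 members, of 14 of the 37 genes, with a median of 0.009. Of these, 97 lay within 0.25, and the 3 DEXSeq model calls were those in *Iars2*.

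Gene expression was looked up for the 42 genes named, in gene counts of all 6 libraries. The read minimum of the rule favors genes that are high in the wt libraries, so these values are not independent of the choice. At an adjusted p of 0.05 (edgeR), 10 of them passed, where 9.85% of all 14396 genes tested were called lower and 9.32% higher. The 4 lower genes were *Hnrnpl*, *Iars2*, *Zmym5* (log2 -0.39 ± 0.088, adjusted p = 0.028) and *Znrf1* (-1.10 ± 0.23, adjusted p = 0.026). The 6 higher genes were *Bcas2*, *Wdr4* (0.51, adjusted p = 0.025), *Eef1d* (0.46, adjusted p = 0.031), *Prpf6* (0.41, adjusted p = 0.034), *Eftud2* (0.42, adjusted p = 0.049) and *Ccnd2*, a cyclin gene (0.93, adjusted p = 0.032). All 10 held their direction when a library was left out, but all 10 missed the threshold without wt replicate 3 (adjusted p = 0.052 to 0.11) and without any 1 of the deficient libraries (0.054 to 0.16). Of the 9 bins called in all 3 choices, those in *Noct*, *Otud5*, *N4bp2l2*, *Mad2l1*, *Pcmt1* and *Bcl11a* belong to genes whose counts did not pass the test, with log2 changes of -0.15, -0.05, -0.04, -0.03, 0.06 and 0.19.

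Just inside the 500-read threshold stood bin 5 of *Trappc10* and bin 18 of *Ufd1* with wt means of 500 reads and log2 changes of -0.09 and 0.03. Just outside stood bin 36 of *Myo9b* and bin 20 of *Aldh16a1* with 499.7 reads and changes of -0.23 and 0.25. At exactly the median level of their gene were 915 members. Genes held from 1 to 45 members with a median of 4, and 1255 genes had 1.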

How the data were processed

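RNA from E14.5 fetal liver cells was sequenced as stranded, paired-end mRNA libraries. Per the labels and the study's methods, the authors aligned reads to GRCm38/mm10 with TopHat2 2.0.10 and deposited raw counts: reads per gene (HTSeq) and per exon bin (DEXSeq's script). The annotation release is not given in the sources used here. A fragment that spans several bins is counted in each, so neighbouring bins share reads. Rows that name no feature held 31.7% to 37.4% of the bin table's counts and 46.7% to 53.3% of the gene table's, and were left out.

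Bins averaging 10 reads or more over the libraries were fitted with edgeR 4.0.16 diffSpliceDGE (TMM), with Benjamini-Hochberg adjustment over 176996 bins. The SE of an edgeR usage change was the size of the change divided by the square root of its F statistic. It can be narrower than the edgeR p implies, as in *Pcmt1* bin 2 (-0.54 ± 0.12, edgeR unadjusted p = 0.026). R was 4.3.3. Alternatives were limma 3.58.1 (diffSplice, and log2 ratios with a prior of 0.5 reads), DEXSeq's model fitted with DESeq2 1.42.0, other scalings, read minimums, each library left out, and members chosen on 1 wt library and fitted without it. Genes were tested with edgeR's quasi-likelihood test on 6 libraries. The fits were tested on simulated data. Embryos of 1 genotype served as replicates. Positions and sequences came from GENCODE M21 transcripts, for units with as many bins as in the files.

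Members and lists were chosen with earlier results of these data known. Bins were named by this rule: members with an edgeR adjusted p under 0.05, of which there were none; the largest losses and gains among members with p under 0.01 and no overlap of shares; all members of *Hnrnpl*; and the extremes of each list. The DEXSeq model calls and the *Lars2* bins were named after their values were seen.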

Additional observations from a re-analysis of the deposited data

How the results depend on the processing

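No paired analysis was possible because the replicate numbers only name the embryos and the labels do not say that numbers pair them across genotypes. The counts in this paragraph run lower and then higher at an adjusted p of 0.05, then lower and higher past an unadjusted p of 0.01 and 2-fold, from 0, 0, 3 and 4 with edgeR. Other scalings, read minimums of 1 and 50 and robust estimation gave the same 4 counts. They were 10, 3, 4 and 0 with limma's diffSplice (median log2 change -0.0137, against 0.0032), 0, 0, 6 and 1 with limma on the ratio, and 20, 11, 3 and 1 with the DEXSeq model. With a level of at least 150% of the median they were 0, 0, 1 and 3, and with at least 1000 reads 0, 0, 0 and 0. Members chosen on the deficient libraries gave 0, 10, 0 and 16 (median 0.0153). Members chosen on wt replicates 1, 2 and 3 and fitted without them gave 0, 0, 3 and 5 (median 0.0137), 5, 2, 2 and 0, and 1, 0, 5 and 0 (median 0.0187). Leaving out each library gave 0 to 5, 0 to 2, 0 to 4 and 0 to 5 with edgeR, with medians of 7e-04 to 0.0068. The highest first 2 counts came without wt replicate 2, and the 2-fold gains were 0 without wt replicate 3 or either deficient library. Chosen after seeing the data were the following. Without *Lars2* the counts were 0, 0, 3 and 0, and 0, 0, 6 and 1 with limma on the ratio. Leaving out each library gave 0 to 13, 0 to 7, 3 to 7 and 0 to 2 with limma on the ratio, and 0 to 23, 0 to 16, 2 to 6 and 0 to 2 with the DEXSeq model, whose calls were 14 and 3, 23 and 11, and 18 and 16 without wt replicates 1, 2 and 3, and 0 and 0 without either deficient library. Members chosen on the deficient libraries gave 0, 6, 3 and 11 with limma on the ratio (median 0.0207). Members chosen on wt replicates 1, 2 and 3 gave 0, 0, 6 and 2 (median 0.017), 13, 7, 6 and 0, and 0, 0, 6 and 2 (median 0.0247) with limma on the ratio, and 12, 3, 5 and 2 (median 0.0169), 23, 12, 4 and 0, and 20, 23, 6 and 2 (median 0.0246) with the DEXSeq model. The cause of these differences was not tested.

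Of the named bins, 10 values changed sign, all when 1 library was left out and none of them called: log2 usage ran from -0.02 to 0.03 in *Hnrnpl* bin 24, -0.01 to 0.07 in bin 26, -0.08 to 0.01 in bin 28, -0.05 to 0.03 in bin 29 and -0.01 to 0.10 in bin 36, and from -0.11 to 1.75, -0.23 to 1.62 and -0.2 to 1.65 in *Lars2* bins 2, 16 and 17. Of the named genes that were not called, expression changed sign with a library left out in *Otud5* (-0.12 to 0.02), *N4bp2l2* (-0.11 to 0.03), *Mad2l1* (-0.07 to 0.04), *Gins1* (-0.06 to 0.07), *Ank1* (-0.3 to 0.08), *Hbb-bs* (-0.44 to 0.35), *Cd44* (-0.19 to 0.01), *Atr* (-0.2 to 0.07), *Rps9* (-0.02 to 0.06), *Rpl41* (-0.05 to 0.07), *Anp32e* (-0.05 to 0.07), *Mkln1* (-0.08 to 0.11), *Nsd3* (-0.01 to 0.17) and *Lars2* (-1.79 to 0.23). *Anp32e* was also at 0 with median-of-ratios factors, 0.02 without the filter and 0.01 with DESeq2, against -0.01. *Eftud2* missed the threshold with median-of-ratios factors (adjusted p = 0.052, edgeR). The bins rest on 2 deficient libraries, which limits what could be called.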
